A study of Mus musculus with 1183 samples.

Results

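The genes described here encode the receptors that bind the constant region of IgE and IgG. They are the high-affinity IgE receptor genes Fcer1a (alpha chain) and Ms4a2 (beta chain), the common gamma chain gene Fcer1g, and the IgG receptor genes Fcgr1, Fcgr2b, Fcgr3 and Fcgr4. They were chosen by symbol, and all 7 were among the 18072 genes of the count table. Levels were read in 1183 immune cells, each sequenced on its own, from distal lungs of newborn mice exposed to hyperoxia (more oxygen than in air) and sampled on postnatal day 7. The labels name 1 female (598 cells) and 1 male (585 cells), so the animal is the replicate (n = 2 per subtype), and animal and sex cannot be told apart. The labels give no strain, no genotype and no oxygen level. Both animals carry the same treatment, and animals kept in normal air were not analysed here, so no effect of hyperoxia was estimated. The labels divide the cells into 16 subtypes, and levels were compared between them.

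Fc receptors tie antibodies to the cells that act on them. The IgE receptor of mast cells and basophils is built from an alpha chain that holds IgE, a beta chain and a pair of gamma chains, and IgE bound to it triggers degranulation when antigen cross-links it. The gamma chain carries the activation motif (ITAM) and also serves the activating IgG receptors encoded by Fcgr1, Fcgr3 and Fcgr4, while the receptor encoded by Fcgr2b has an inhibitory motif (ITIM) of its own and opposes them. In the lung these receptors are known from macrophages, monocytes, neutrophils, mast cells and basophils.

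The stretch upstream of the start site is shown for the 5 members in which the letters of a searched motif were found. Each line holds the 120 bases before the start listed in RefSeq (GRCm38.p6), on the gene's own strand from 5′ to 3′. Capitals mark letters of the GATA box (AGATAA or TGATAA) in the IgE receptor genes and of a PU.1-type box (AGAGGAAG) in Fcgr1, Fcgr3 and Fcgr4, on either strand. GATA factors and PU.1 are transcription factors of mast cells and of myeloid cells. The stretches lie at chr1:173227230-173227349 for Fcer1a, chr19:11623720-11623839 for Ms4a2, chr3:96293970-96294089 for Fcgr1 and chr1:171059395-171059514 for Fcgr3, all on the minus strand, and at chr1:171018806-171018925 on the plus strand for Fcgr4.
Fcer1a: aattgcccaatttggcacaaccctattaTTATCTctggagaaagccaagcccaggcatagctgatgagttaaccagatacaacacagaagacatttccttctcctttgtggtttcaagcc
Ms4a2: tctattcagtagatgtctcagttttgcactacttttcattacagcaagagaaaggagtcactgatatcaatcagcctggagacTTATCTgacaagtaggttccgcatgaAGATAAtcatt
Fcgr1: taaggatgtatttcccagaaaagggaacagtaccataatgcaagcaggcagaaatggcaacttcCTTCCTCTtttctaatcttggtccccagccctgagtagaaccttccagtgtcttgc
Fcgr3: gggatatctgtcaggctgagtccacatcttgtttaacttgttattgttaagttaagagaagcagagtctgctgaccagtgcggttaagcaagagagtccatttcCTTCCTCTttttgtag
Fcgr4: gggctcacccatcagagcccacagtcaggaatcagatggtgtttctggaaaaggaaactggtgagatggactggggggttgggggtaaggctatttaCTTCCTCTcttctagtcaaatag

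Within 250 bases upstream of the start the GATA letters occurred 1 time in Fcer1a and 3 times in Ms4a2, and in none of the other members. They occurred in 18.8% of all 27025 genes of the table. The PU.1-type letters occurred 1 time each in Fcgr1, Fcgr3 and Fcgr4, ending 49, 9 and 16 bases before the start, and in 4.27% of all genes. Fcer1g and Fcgr2b had 0 matches to either motif. RefSeq lists 2 starts for Fcgr3, and the second was used. The letters were chosen after the sequences had been seen, and a match is a description of letters, not a binding site. Fcgr2b, Fcgr4 and Fcgr3 lie next to each other on chromosome 1 with 0 protein-coding genes between them. Fcer1g follows after 7 protein-coding genes and Fcer1a after 54 more, while Fcgr1 lies on chromosome 3 and Ms4a2 on chromosome 19.

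Depth per cell ran from 16753 to 7560179 reads, with a median of 1100966, and 0 pairs of cells had identical counts. Summed over the cells of a subtype, the libraries of an animal held between 6024429 and 235566546 reads. Of the markers listed for each subtype, all 4 were higher than in every other kind of cell in 7 subtypes and 3 of 4 in a further 4. In Mac V and in IL cells this held for only 2 of 4. Mast cells and mast cell II, a second class labelled as mast cells, were not set against each other in this check. In mast cell II, 1 of 4 markers (Kit) was higher than in the remaining kinds of cell. Its cells had 0 reads of Tpsb2, a mast cell tryptase, and its Cma1, a chymase, stood at 2.49 CPM (female) and 54.6 CPM (male), against 80934 and 86808 CPM in mast cells. The meaning of the Roman numerals and of IL cell is not given in the labels. Markers of alveolar macrophages (Siglecf, Car4, Marco and Pparg) were listed for Mac III, complement genes for Mac IV and monocyte genes for Mac V.

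Fcer1a, which binds IgE, was found in mast cells and basophils and at no more than 1 read in any other subtype of an animal. Levels are given as CPM, the reads of a gene relative to all reads of the summed library. In basophils the female had 829.1 CPM of Fcer1a and the male 1291 CPM, and in mast cells they had 591.6 and 211.3 CPM. Both basophil libraries lay above both mast cell libraries. In Mac III, the largest subtype, 0 cells of both animals had the gene at the common depth used below. Taking 3 cells as the limit of a count of 0, this allows a share of detected cells of up to 0.771%.

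Ms4a2, the beta chain that amplifies the signal, showed the same order. The female basophils had 800.5 CPM and the male basophils 458.9 CPM, against 311.6 and 196.9 CPM in mast cells. The animals did not overlap between these subtypes. The higher animal differed, as Fcer1a was higher in the male basophils and Ms4a2 in the female basophils. Outside mast cells and basophils the next level was that of mast cell II, at 0 reads in the female and 39 reads in the male, all from 1 cell.

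**Figure D1:**
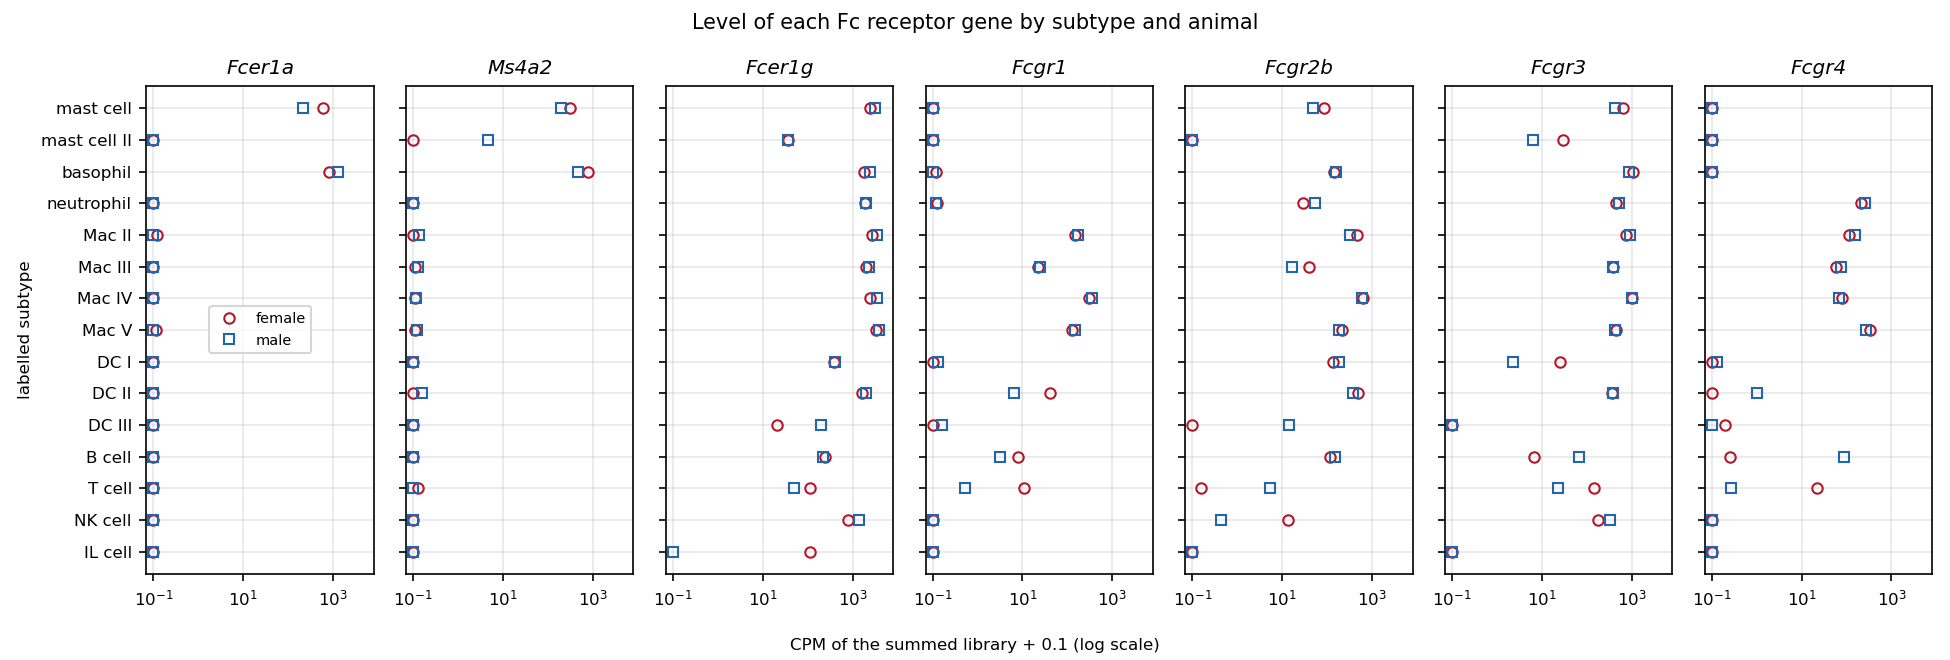
Each panel shows a gene, with its level in CPM + 0.1 on a log axis against the 15 subtypes that have at least 5 cells in each animal; circles are the female and squares the male. Fcer1a and Ms4a2 stand above 190 CPM in mast cells and basophils and at no more than 4.42 CPM elsewhere, whereas Fcer1g spans most subtypes.

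Per kilobase of the longest coding transcript, Fcer1a stood at 831 CPM per kb in the female basophils and 1294 in the male basophils, and Ms4a2 at 334.8 and 191.9. Fcer1g stood at 2583 and 3660 CPM per kb in the same cells. On this scale the order gamma chain, alpha chain, beta chain held in both animals in basophils. In mast cells it held too, with 3589 and 4693 CPM per kb for Fcer1g, 592.8 and 211.7 for Fcer1a and 130 and 82.3 for Ms4a2.

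Single cells were then compared at the same depth. Each cell was thinned to 100000 reads, and a gene with at least 5 of them was counted as detected; intervals are exact Clopper-Pearson at 95% and cover counting error only. Ms4a2 was detected in 31 of 34 basophils of the female (91.2%) and 18 of 19 of the male (94.7%), and in 25 of 39 (64.1%) and 11 of 20 (55%) mast cells. Fcer1a was detected in 22 of 34 (64.7%) and 15 of 19 (78.9%) basophils, and in 18 of 39 (46.2%) and 6 of 20 (30%) mast cells. The beta chain was thus detected in more cells than the alpha chain in both subtypes and both animals, although its level per kilobase was lower in each of the 4 libraries.

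All 3 subunits of the IgE receptor were detected together in 20 of 34 basophils of the female (58.8%, 40.7% to 75.4%) and 14 of 19 of the male (73.7%, 48.8% to 90.9%). In mast cells this held for 10 of 39 cells (25.6%, 13% to 42.1%) and 2 of 20 cells (10%, 1.23% to 31.7%). Both animals thus had the higher share in basophils. In mast cells the alpha chain was not found more often where the beta chain was. Fcer1a was detected in 10 of 25 mast cells of the female with Ms4a2 and 8 of 14 without it, and in 2 of 11 and 4 of 9 of the male. Mcpt8, the gene of a basophil protease, was detected in 3 of 59 mast cells, and Fcer1a was found in 1 of these 3 and in 23 of the 56 others (41.1%). Without thinning and with at least 10 reads, Fcer1a was found in 26 of 59 mast cells (44.1%).

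**Figure D2:**
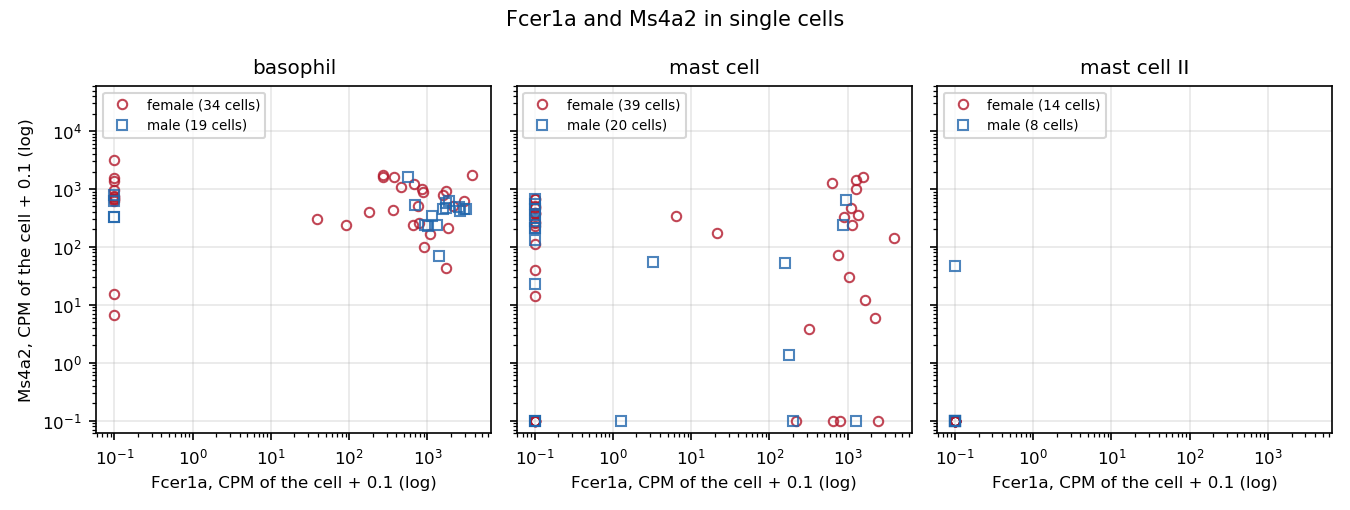
Each point is a cell, with Fcer1a on the horizontal and Ms4a2 on the vertical axis, both as CPM of the cell + 0.1 on log axes, in basophils, mast cells and mast cell II. Most basophils lie in the upper right, mast cells spread along both edges, and all but 1 of the mast cell II cells lie in the lower left corner.

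The question of how mast cells differ from basophils was tested over the libraries of the animals with edgeR's quasi-likelihood test, with Benjamini-Hochberg adjustment over 15600 genes. Of all genes 1.71% were called at an adjusted p under 0.05 (2591 had an unadjusted p under it), and of the members 0, with 0 at an unadjusted p under 0.05 and 0 by DESeq2. The log2 fold change of mast cells against basophils was -1.62 ± 0.89 (SE) for Fcer1a (adjusted p 0.414) and -1.49 ± 1.42 for Ms4a2 (adjusted p 0.716). Each SE given with edgeR's values was derived from the test, as the absolute log2 fold change divided by the square root of its F statistic. The libraries of Fcer1a, Ms4a2, Fcgr2b and Fcgr3 did not overlap between the subtypes, all higher in basophils, but these differences did not pass the test. Of all genes tested, 41.1% did not overlap in this way, 14% with basophils higher. For Fcer1g the animals overlapped. Fcgr1 and Fcgr4 were at 0 reads in mast cells and at no more than 1 read in basophils.

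Mast cell II lacked most of the family. Fcer1a, 591.6 and 211.3 CPM in mast cells, was at 0 reads in both animals in mast cell II, at least 4295-fold lower (edgeR, adjusted p 0.00199), and Fcgr2b, 86 and 49.7 CPM in mast cells, was at 0 reads too (adjusted p 0.0288). The bound of Fcer1a counts 3 reads over mast cell II, and it was 2261-fold without the female mast cells and 1179-fold without mast cell II of the female. Fcer1g was lower, at 35.6 and 36.8 CPM against 2451 and 3205 CPM in mast cells, a log2 difference of 7.04 ± 1.60 (adjusted p 0.0375), and so was Fcgr3, at 29.6 and 6.12 CPM against 645 and 428 CPM, a log2 difference of 5.73 ± 1.20 (adjusted p 0.0305). So 4 of the 7 members were called, all higher in mast cells, where 0.788% of all genes were called. Ms4a2 was not called by edgeR, at a log2 difference of 7.54 ± 1.86 and an adjusted p of 0.0815, but it was by DESeq2 (adjusted p 0.00541). All 39 reads of it in mast cell II came from 1 cell of the male, and without that library edgeR called it too (adjusted p 0.0141). Of the mast cell II cells, 15 of 22 had none of the 7 genes at the common depth, against 2 of 59 mast cells. At least 2 mast cell markers were detected in 4 of the 6 mast cell II cells with Fcer1g and in 0 of the 16 without it.

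The call of Fcer1a held when each of the 4 libraries was left out in turn, with adjusted p-values from 0.00427 to 0.0243, but not with DESeq2 (adjusted p 0.257). Fcer1g and Fcgr3 lost their calls without any one of the libraries, at 0.0826 and 0.0956 without the mast cells of the female, 0.0912 and 0.0574 without those of the male, 0.279 and 0.0983 without mast cell II of the female and 0.351 and 0.33 without that of the male. Fcgr2b lost its call without the mast cells of the female (0.065) and without mast cell II of the female (0.239) or of the male (0.233). The sample titles carry a code (DC28, DC30, DC34 or DC35), which was read here as the sequencing run. With only cells of the run that both animals share (DC35), Fcer1a alone was called. The adjusted p by edgeR was then 0.185 for Fcer1g, 0.0645 for Fcgr2b and 0.0558 for Fcgr3.

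Fcer1g, the gamma chain that IgE and IgG receptors share, was the member found in most subtypes. Its level was highest in Mac V, with 3391 CPM (female) and 3968 CPM (male). Mac II, at 2782 and 3543 CPM, Mac IV, at 2428 and 3587 CPM, and mast cells, at 2451 and 3205 CPM, followed. Mac V overlapped with Mac II and Mac II with Mac IV, and Mac IV with mast cells, but both Mac V libraries lay above both mast cell libraries. Mac III lay below mast cells in both animals, while the male basophils reached above the female mast cells. Mac III (1953 and 2352 CPM), basophils (1764 and 2500 CPM), neutrophils (1942 and 2001 CPM) and DC II (1615 and 1975 CPM) overlapped from neighbour to neighbour. NK cells stood below them at 802.5 and 1427 CPM and DC I at 386.3 and 413.9 CPM, neither overlapping with its neighbours. B cells stood at 243.3 and 215.1 CPM and T cells at 115.7 and 48.96 CPM. DC III (21.22 and 193.6 CPM) differed widely between the animals, mast cell II stood at 35.6 and 36.8 CPM, and in IL cells all reads came from 1 cell.

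Detection of Fcer1g was close to complete in the macrophage subtypes. It was found in 100% of Mac II, Mac III, Mac V and DC II cells and in 98.6% of Mac IV cells. It was found in 90.2% of neutrophils and in 31 of 40 DC I cells. In lymphoid subtypes it was found in 8 of 11 NK cells, 8 of 64 B cells, 4 of 46 T cells and 1 of 14 IL cells. The NK cells are few, and 7 of the 8 with the gene had at least 2 NK markers.

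Fcgr1, the high-affinity IgG receptor, was highest in Mac IV, Mac II and Mac V. In Mac IV the female had 302.7 CPM and the male 361.6 CPM. Mac II had 151.7 and 172.6 CPM, and Mac V 126.8 and 149.9 CPM. Neighbours in this order did not overlap. The step from Mac II to Mac V was not tested, and by plate they overlapped, at 136.2 to 197.9 and 95.2 to 227.8 CPM. Plates were read from a number in the sample titles. Values by plate cover only cells with CD45 in the title (1173 cells, with CD31 in 4 others and mesench in 6). In the female, these plates 1 and 2 carry the codes DC28 and DC35, so plate and run cannot be told apart there. For these orders of levels, the share of all genes that do not overlap was counted only for mast cells against basophils (41.1%) and Mac III against Mac IV (58.3%). DC II, at 40.56 and 6.501 CPM, and Mac III, at 22 and 24.5 CPM, followed far lower and overlapped. T cells stood at 10.7 and 0.416 CPM and B cells at 7.68 and 3.12 CPM. In DC II of the male 97.4% of the reads came from 1 cell. Mast cells, mast cell II, NK cells and IL cells had 0 reads, and basophils, neutrophils, DC I and DC III had no more than 1 read in an animal. Per cell, Fcgr1 was detected in 68.3% and 74.7% of Mac IV cells of the female and male, in 13.3% and 14.4% of Mac III cells, and in 0 neutrophils of both animals, where 3 cells as the limit allow a share of detected cells of up to 2.26%.

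Fcgr4, a receptor for IgG that in mice is known from monocytes, macrophages and neutrophils, had another order. It was highest in Mac V, with 327.3 CPM (female) and 269.6 CPM (male). Neutrophils followed at 205.4 and 260.2 CPM and Mac II at 112.4 and 158.2 CPM, and neighbours did not overlap. By plate they did overlap, with Mac V at 246.6 to 366.4 CPM, neutrophils at 184.4 to 290 CPM and Mac II at 83.72 to 218.4 CPM. Mac IV, at 79 and 69.1 CPM, and Mac III, at 57 and 74.1 CPM, overlapped. The share of cells with Fcgr4 gave another order. It was 53% (female) and 47.7% (male) in Mac V, 44.4% and 50% in Mac II, and 25.5% and 39.7% in neutrophils. Mac III had 31.5% and 38%, and Mac IV 23.8% and 21.5%. By this share Mac II lay above neutrophils in both animals. Mast cells, mast cell II, basophils, NK cells and IL cells had 0 reads, and DC subtypes at most 16 reads in an animal. So Mac IV, first for Fcgr1, was behind Mac V, neutrophils and Mac II for Fcgr4, and neutrophils had Fcgr4 with 2 reads of Fcgr1 in all.

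Within Mac V, Fcgr4 and Fcgr1 divided along a pair of the monocyte markers. Ly6c2 is known from classical monocytes and Ace from nonclassical, patrolling monocytes. Of the Mac V cells with Ace, 31 of 37 female cells (83.8%) and 12 of 17 male cells (70.6%) had Fcgr4, against 4 of 29 (13.8%) and 9 of 27 (33.3%) without Ace. By Ly6c2 the order was the opposite, with Fcgr4 in 5 of 28 cells (17.9%) and 7 of 24 cells (29.2%) with Ly6c2 and in 30 of 38 (78.9%) and 14 of 20 (70%) without it. Both animals thus had more Fcgr4 cells among those with Ace and fewer among those with Ly6c2.

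Fcgr1 divided the other way in Mac V. It was detected in 15 of 28 (53.6%) and 11 of 24 (45.8%) cells with Ly6c2, against 10 of 38 (26.3%) and 4 of 20 (20%) without it. Among cells with Ace it was found in 10 of 37 (27%) and 2 of 17 (11.8%), against 15 of 29 (51.7%) and 13 of 27 (48.1%). These are counts of cells within 2 animals and were not tested. The median depth of Mac V cells with Fcgr4, before thinning, was 956940 reads and that of cells without it 1153584.5 reads, and for Fcgr1 it was 1102407.5 and 968910.5 reads.

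**Figure D3:**
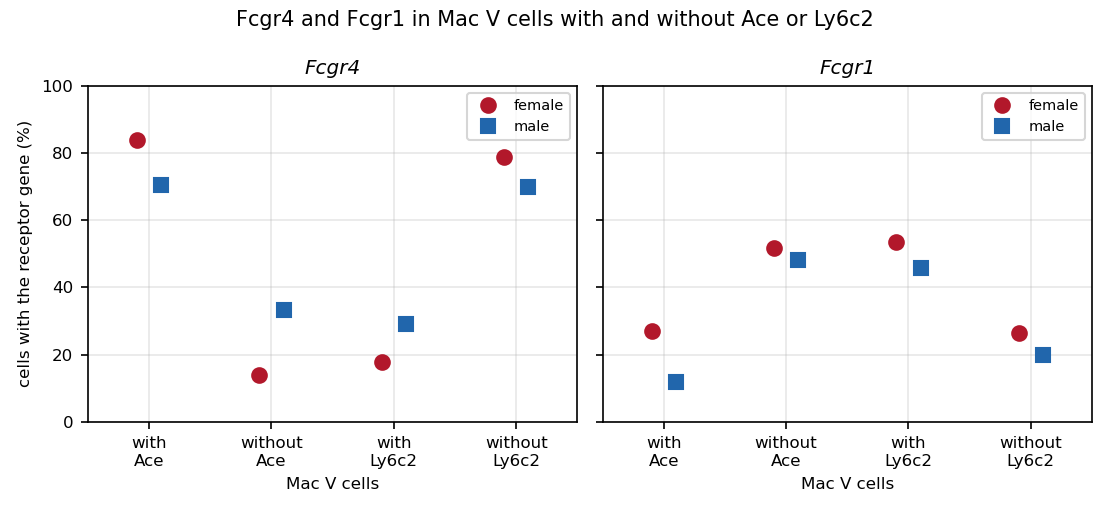
The vertical axis gives the percent of Mac V cells in which Fcgr4 (left) or Fcgr1 (right) was detected, for cells with and without Ace or Ly6c2; circles are the female and squares the male. Fcgr4 lies at 70.6% to 83.8% with Ace and at 13.8% to 33.3% without it, and Fcgr1 is higher with Ly6c2 and lower with Ace.

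Directly against each other, Fcgr4 and Fcgr1 showed no common order in Mac V. Fcgr4 was detected in 36% of the cells with Fcgr1 and 63.4% of those without it in the female, and in 60% and 41.4% in the male. Fcgr2b went with Fcgr1, detected in 56% and 66.7% of the Mac V cells with Fcgr1 and in 26.8% and 31% of those without it. In neutrophils, Fcgr4 was detected in 6 of 30 cells with Fcgr3 and 8 of 25 without it in the female, and in 19 of 55 and 12 of 23 in the male. Neutrophils with Ngp, a granule protein of immature neutrophils, had Fcgr3 more often, in 6 of 9 and 18 of 20 cells against 24 of 46 and 37 of 58 cells without Ngp.

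Fcgr3, the activating receptor of low affinity for IgG, was widespread. It was highest in Mac IV, with 1020 CPM (female) and 998.4 CPM (male), and in basophils, with 1041 and 888.9 CPM, which overlapped. Mac II followed at 749 and 910 CPM and overlapped with basophils. Mast cells (645 and 428 CPM), neutrophils (453 and 534 CPM) and Mac V (457 and 426 CPM) overlapped, and Mac III (388.5 and 378.7 CPM) overlapped with DC II, whose mean was 372.5 CPM. NK cells stood at 175.9 and 321.4 CPM. DC III and IL cells had 0 reads. It was detected in 90.7% of Mac III cells and 96.5% of Mac IV cells, so most cells of both subtypes had it.

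Fcgr2b, the inhibitory receptor, reached its highest levels in Mac IV, with 629.3 CPM (female) and 592.4 CPM (male). DC II (497.3 and 383.8 CPM) and Mac II (452.2 and 320.4 CPM) followed and overlapped. Mac V (213.2 and 184.6 CPM), DC I (mean 160.8 CPM), basophils (139.2 and 156.2 CPM) and B cells (116.1 and 147.4 CPM) overlapped from neighbour to neighbour. Mast cells stood at 86 and 49.7 CPM, neutrophils at 29.6 and 54.6 CPM and Mac III at 39.7 and 16.8 CPM. In neutrophils 37.4% of the reads in the female and 56.3% in the male came from 1 cell, and the gene was detected in 10 cells (7.52%). In Mac III it was detected in 38 cells (9.77%), against 83.8% of Mac IV cells.

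The balance of the inhibitory and the activating gene was read as the share of Fcgr2b in the reads of Fcgr2b and Fcgr3 together, which is a share of reads and not of molecules. Among the 10 subtypes plotted it was lowest in Mac III, at 9.28% in the female and 4.24% in the male, and in neutrophils, at 6.14% and 9.27%. Mast cells, at 11.8% and 10.4%, and basophils, at 11.8% and 14.9%, lay near them. The other macrophage subtypes lay higher, with 31.8% and 30.2% in Mac V, 37.6% and 26% in Mac II and 38.2% and 37.2% in Mac IV. DC II had 58.2% and 49.7%, and Fcgr2b made up most reads in DC I, at 84.1% and 98.8%, and in B cells, at 94.7% and 68.3%. Of the subtypes not plotted, which had few cells with the genes, mast cell II had 0 reads of Fcgr2b, NK cells stood at 7.01% and 0.103%, and T cells at 0.0376% and 19.1%.

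The median over cells with at least 20 reads of the pair was lower than the share of summed reads in most of these subtypes. It was 8.03% and 8.82% in Mac V, 28.7% and 7.34% in Mac II, 32.3% and 35.1% in Mac IV, 4.31% and 0% in mast cells, 0.0855% and 0.0393% in basophils, and 0% in both animals in Mac III and neutrophils. In DC I and B cells the median was 100% in both animals. The transcripts of the 2 genes share stretches of 50 bases, 12.8% of those of Fcgr3 and 4.75% of those of Fcgr2b. Reads there could be counted for either gene or be left out of both, which was not checked. Fcgr2b also overlaps an antisense gene, Gm38204, and use of strand in counting is not given in the sources used here.

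**Figure D4:**
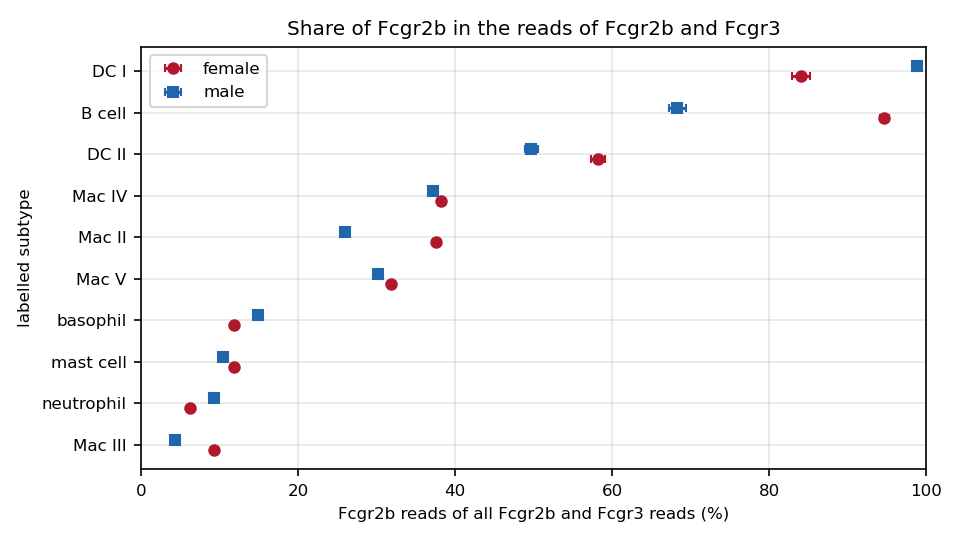
The horizontal axis gives the percent of Fcgr2b among the reads of Fcgr2b and Fcgr3 in 10 subtypes; circles are the female, squares the male, and bars exact 95% intervals that cover counting error only. Mac III and neutrophils lie under 10% in both animals, and DC I and B cells above 65%.

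The macrophage subtypes were compared with each other by the same test. The log2 difference of Mac III against Mac IV was negative in Fcgr1 (-3.80 ± 1.38, SE, adjusted p 0.484), Fcgr2b (-4.39 ± 1.73, adjusted p 0.52) and Fcgr3 (-1.35 ± 0.99, adjusted p 0.926), with animals that did not overlap, as in 58.3% of all genes, but none passed edgeR's test. Against Mac V, Mac III differed by -2.63 ± 1.31 in Fcgr1, -2.88 ± 1.61 in Fcgr2b and -2.24 ± 1.91 in Fcgr4, and Mac IV differed from Mac V by 1.17 ± 1.25 in Fcgr1 and -2.11 ± 1.90 in Fcgr4, none called. The share of all genes called was 0.263% for Mac III against Mac IV, 0.442% for Mac III against Mac V and 0.167% for Mac IV against Mac V. In each, 0 members were called by edgeR and by DESeq2. At an unadjusted p under 0.05 there were 2 members in the first comparison, 0 in the second and 0 in the third, and 1231, 1467 and 1660 of all genes.

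These counts moved with the subtypes that entered the fit. With only the compared subtypes in the fit, 3 members were called for Mac III against Mac IV, which were Fcgr1 (adjusted p 0.00264), Fcgr2b (0.00658) and Fcgr3 (0.0198). Likewise Fcgr1 (0.00896), Fcgr2b (0.028) and Fcgr4 (0.0132) were called for Mac III against Mac V. For Mac IV against Mac V these were Fcgr2b (0.047) and Fcgr4 (0.0288).

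Between Mac V and neutrophils 1 member was called by edgeR, where 0.404% of all genes were. Fcgr1 stood at 126.8 and 149.9 CPM in Mac V with 1 read in the neutrophils of each animal (adjusted p 0.0131); the ratio of the pooled reads per depth was 12.64 on the log2 scale, with an exact interval of 10.79 to 15.69 for counting error only. Without Mac V of the female or the male the adjusted p was 0.0632 and 0.0619, without the neutrophils of the female or the male 0.166 and 0.0747, and in the shared run 0.076. The log2 difference of Fcgr4 was -0.05 ± 1.82 and that of Fcgr3 -0.57 ± 0.98. Neither passed the test, and the animals overlapped for Fcgr3. For Fcgr4 the CPM of Mac V was higher in both animals, while the fitted value after TMM scaling was near 0.

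Of the dendritic cells, DC II had the higher levels of the activating genes Fcgr3 and Fcgr1. Fcgr3 had a mean of 372.5 CPM in DC II and stood at 25.35 and 2.217 CPM in DC I, a log2 difference of 4.66 ± 1.14 (edgeR, adjusted p 0.153), and was detected in 17 of 25 DC II and 2 of 40 DC I cells. DESeq2 called it (adjusted p 0.000256). Fcgr1 was the member that edgeR called, with 651 reads in the DC II libraries and 1 read in those of DC I (adjusted p 0.033), a ratio of 10.29 on the log2 scale with an exact interval of 7.81 to 15.60 for counting error, where 0.244% of all genes were called. It was detected in 3 of 11 DC II cells of the female and 0 of 14 of the male. The call was lost without DC II of the female (adjusted p 0.129), without DC I of the female (0.586) or of the male (0.253), with each cell given equal weight (0.0739), in the shared run (0.179) and with only these subtypes in the fit (0.437). Fcgr2b was present in both, in 20 of 25 DC II and 24 of 40 DC I cells, with a log2 difference of 1.31 ± 1.53 (adjusted p 0.994). In DC III, Fcer1g was detected in 8 of 22 cells, Fcgr2b in 1 and the other members in 0.

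In B cells Fcgr2b was the member detected in the most cells. B cells had 116.1 CPM (female) and 147.4 CPM (male), and T cells 0.054 and 5.25 CPM, and it was detected in 19 of 64 B cells and 1 of 46 T cells. The log2 difference was 5.51 ± 1.83 with an adjusted p of 0.387 by edgeR, which called 0 of the members and 0.0962% of all genes (1 member and 1460 genes at an unadjusted p under 0.05). DESeq2 called it (adjusted p 0.00841). Of the B cells with Fcgr2b, 19 of 19 had at least 2 B cell markers.

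The other members were detected mostly in B cells with markers listed for a macrophage subtype or for neutrophils. Of the 4 markers listed for Mac V, only 2 were higher there than in every other kind of cell. At least 2 markers of a macrophage subtype or of neutrophils were detected in 6 of 8 B cells with Fcer1g, 4 of 4 with Fcgr1, 4 of 5 with Fcgr3 and 3 of 3 with Fcgr4, against 5 of 56 B cells without Fcer1g. Of the 19 B cells with Fcgr2b, 6 had such markers, against 5 of 45 without it. In T cells Fcgr3 was detected in 7 of 46 cells, of which 1 had such markers and 7 had at least 2 T cell markers. The part of these markers in the levels of B and T cells was not tested. Fcgr3 and Fcgr4 overlapped between B and T cells.

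Counted over all members, the number detected per cell set the subtypes apart. The median was 4 of 7 in basophils, Mac II and Mac IV, 3 in mast cells, Mac V and DC II, and 2 in Mac III and neutrophils. It was 1.5 in DC I and 0 in mast cell II, DC III, B cells, T cells and IL cells. Among basophils, DC II, Mac II, Mac III, Mac IV and Mac V, 0 cells had none of the genes. All 3 activating IgG receptor genes were detected together in 7 of 27 and 6 of 20 Mac II cells and in 4.11% of Mac III, 13.4% of Mac IV and 13.6% of Mac V cells. Fcer1g and Fcgr3, which pair as a receptor, were detected together in 90.7% of Mac III cells, 48 of 59 mast cells and 44 of 53 basophils. Nearly all of these cells had Fcer1g, so the shares follow those of Fcgr3, at 90.7%, 48 of 59 and 45 of 53.

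**Figure D5:**
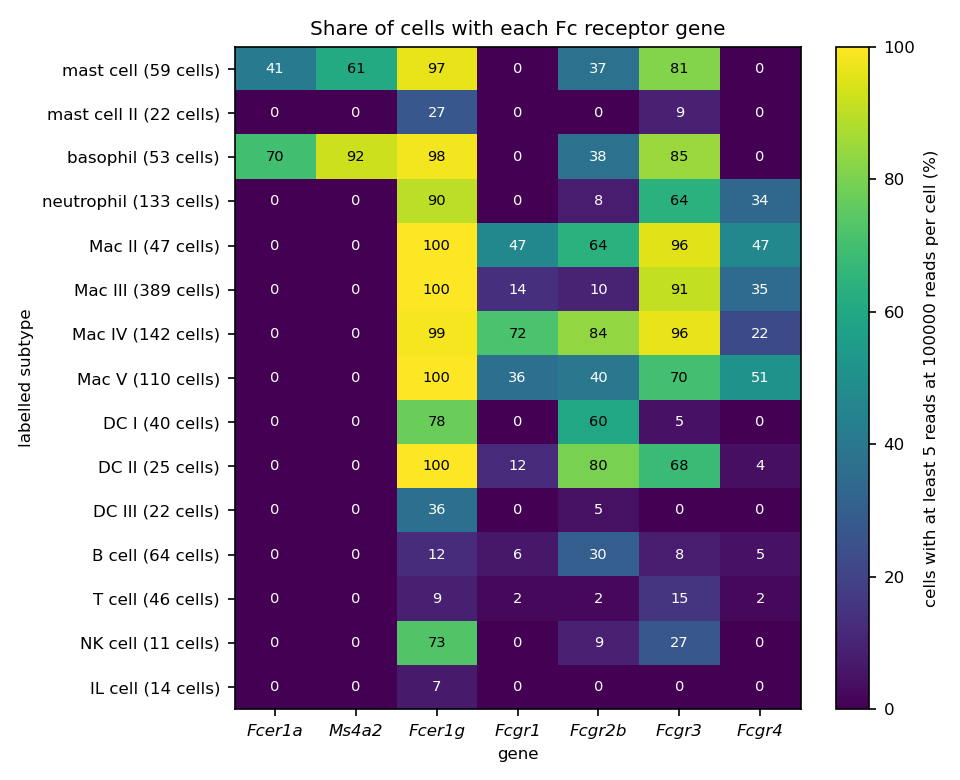
The colour and the printed number give the percent of cells, over both animals, with at least 5 reads of the gene at 100000 reads per cell, for each gene (columns) and subtype (rows, with the number of cells). Fcer1g is high in the rows of macrophages, neutrophils, mast cells, basophils and DC II, Fcer1a and Ms4a2 in those of mast cells and basophils, and Fcgr1 in those of Mac II, Mac IV and Mac V.

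Genes that act with these receptors were read from lists. Of 24 signalling genes, all tested, 1 was called higher and 1 lower in mast cells against basophils (median log2 difference 0.02, against 0.15 over all genes). Cblb, a ubiquitin ligase that dampens receptor signals, was at 62.6 and 90.5 CPM in mast cells with 0 reads in basophils (adjusted p 0.0146). The gene called lower was Fgr, a kinase, named here after its values were seen, at 3.77 CPM in the female and 0 in the male basophils (adjusted p 0.0228). Lat2, an adaptor of the IgE receptor, had its highest levels in mast cells (1211 and 852 CPM) and basophils (842 and 648 CPM). The kinase gene Lyn was highest in Mac V, at 804 and 595 CPM, and Syk had overlapping levels in neutrophils (379.8 and 304.2 CPM) and Mac V (306.5 and 360.9 CPM). Against mast cell II, Inpp5d, a phosphatase that acts with inhibitory receptors, was the only signalling gene called by edgeR (DESeq2 called 7), 3.48 ± 0.73 higher in mast cells on the log2 scale (adjusted p 0.0282), with a list median of 1.76 against 0.13 over all genes.

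Of 7 tested genes of ITAM adaptors and gamma chain partners 1 was higher and 1 lower in mast cells than in mast cell II. Tyrobp, an ITAM adaptor like Fcer1g, was 5.45 ± 0.61 higher on the log2 scale in mast cells (1733 and 2034 CPM against 100 and 49.1 CPM, adjusted p 7.04e-05). Clec4d, a lectin that signals through the gamma chain, was higher in mast cell II, at 53.47 and 121.7 CPM (adjusted p 0.0316). Between DC II and DC I, Clec4n, another such lectin, was at 55.65 CPM in the male DC II cells, and higher in the female, with 0 reads in both DC I libraries (adjusted p 0.0146), as 1 of the 7 genes, with a list median of 5.30 against 0 over all genes. Of 11 tested inhibitory receptors, Cd300lf was higher in mast cells than in basophils (8.41 ± 1.47, adjusted p 0.00347) and than in mast cell II (9.96 ± 1.60, adjusted p 0.00223). Between B and T cells 1 signalling gene was called, Lat2, higher in B cells (10.49 ± 1.80, adjusted p 0.019). Of 9 tested genes of other immunoglobulin receptors, 0 were called by edgeR in any of the 8 comparisons, with 0 to 6 at an unadjusted p under 0.05, the most for B against T cells. DESeq2 called 0 to 3 of them in a comparison, among them Fcer2a, Fcrl1 and Fcrla, all higher in B than in T cells (adjusted p 0.00668, 0.000459 and 1.22e-09). Fcgrt, the neonatal Fc receptor, was highest in Mac IV (1323 and 1289 CPM), and Fcer2a, the low-affinity IgE receptor, in B cells (73.8 and 64.7 CPM). 

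Across the 30 summed libraries, which share animals and were scaled only to depth, the genes most like each member in log2(CPM + 1) were listed as a description. Fcer1a was most like Prss34, a basophil protease gene (Pearson's r 0.996), and Ms4a2 most like Cyp11a1 (0.994), and Prss34, Cyp11a1 and Dnase2b were the first 3 for both. Fcer1g was most like Tyrobp (0.858), Milr1 (0.848) and Myo1f (0.795), Fcgr1 like Trem2 (0.955), Tlr8 (0.904) and Ms4a6d (0.895), and Fcgr4 like Mtus1 (0.926), Sirpb1b (0.923) and Tlr13 (0.912). Fcgr2b was most like Cfp, the gene of properdin (0.816), BC028528 (0.796) and Cd86 (0.784), and Fcgr3 like Paqr7 (0.827), Plek (0.814) and Myo1f (0.779). Between members the highest value was that of Fcer1a with Ms4a2 (0.987), then Fcer1g with Fcgr3 (0.834) and Fcer1g with Fcgr2b (0.738), and the lowest that of Ms4a2 with Fcgr4 (-0.343).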

How the data were processed

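Single immune cells were sorted into plates and sequenced after tagging with Tn5, per the labels' protocols. The deposited table holds raw counts, that is whole reads per gene and cell, with 0 columns that match no sample. The submitters' processing notes name STAR 2.5.2b and HTSeq 0.10 and the build GRCh38, a human build, although the samples are mouse; the build used for the counts is therefore unclear. Reads carry no molecular identifiers, so they are not independent molecules.

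Counts were summed per animal and labelled subtype (30 libraries, 15 subtypes, those with 5 or more cells from each of the animals; Mac I has 1 cell). Genes passing filterByExpr (15600, all 7 members) were tested with edgeR 4.0.16 (quasi-likelihood, TMM, Benjamini-Hochberg, threshold 0.05; common biological coefficient of variation 1.15) in R 4.3.3, with DESeq2 1.42.0 and the other alternatives below. Both animals gave every subtype, so the animal pairs the libraries; deviations of the female libraries from their subtype means correlated by -0.06 to 0.08. Cells were thinned to 100000 reads (5 shallower cells left out). No doublet caller was run. Python 3.11.15 was used for the rest.

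All 7 members are named. The other genes named are the 3 most like each member and, per list and comparison, up to 2 called genes in each direction with at least 20 CPM in the higher subtype, ranked by fold. The markers named come from fixed marker lists, and Lyn, Syk, Fgr, Fcgrt, Fcer2a, Fcrl1, Fcrla and Ngp were named after their values were seen. Members and lists were chosen with earlier results of these data known.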

Additional observations from a re-analysis of the deposited data

Results flagged for a closer look

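In several comparisons the animals differed in direction, and the difference between the animals was not tested in any of them. On the log2 ratio of CPM + 1, Fcgr4 was lower in Mac III than in Mac IV in the female (-0.46) and higher in the male (0.10). Fcgr3 was at 0.01 in the female and -0.32 in the male for Mac V against neutrophils. For B cells against T cells, Fcgr3 was at -4.27 in the female and 1.58 in the male, and Fcgr4 at -4.32 and 6.22. The female T cells and the male B cells held most reads of Fcgr4 in these lymphocytes, and in the female T cells 97.2% of them came from 1 cell.

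The single Mac I cell, from the male, entered no comparison and had reads of 4 members. Its levels were 2346 CPM for Fcer1g, 1236 CPM for Fcgr3, 1581 CPM for Fcgr2b and 74.2 CPM for Fcgr1, and it had 0 reads of Fcer1a, Ms4a2 and Fcgr4. Fcgr2b made up 56.1% of its reads of Fcgr2b and Fcgr3.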

How the results depend on the processing

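The percent of tested genes called moved with the fit. The order here is mast cells against basophils, mast cells against mast cell II, Mac III against Mac IV, Mac III against Mac V, Mac IV against Mac V, Mac V against neutrophils, DC II against DC I and B against T cells. DESeq2 called 17, 11.3, 3.31, 6.16, 6.11, 9.67, 7.86 and 6.71% of genes. The shared run, read from the titles, gave 0.641, 0.363, 0.0595, 0.178, 0.0462, 0.0793, 0.112 and 0.205%. With only the compared subtypes in the fit it was 2.62, 2.77, 12, 9.23, 4.37, 0.846, 0.411 and 1.1%. With only subtypes of at least 15 cells per animal, an alternative chosen after seeing the data, it was 5.23, 0.754, 1.34, 0.585, 1.32 and 0.429%, with no value for mast cell II and the dendritic cells. With each cell given equal weight it was 0.153% for DC II against DC I. Leaving out 1 library gave 0.587 to 1.04, 0.198 to 0.372, 0.00603 to 0.103, 0.0965 to 0.138, 0 to 0.0423, 0.012 to 0.658, 0.0239 to 0.174 and 0 to 0.0664%. The split of higher and lower calls moved with the scaling. For Mac III against Mac IV it was 8 and 33, and 13 and 28 with cells of equal weight. For Mac IV against Mac V it was 15 and 11, then 15 and 7 with relative log expression factors and 15 and 21 with cells of equal weight. For DC II against DC I it was 34 and 4, and 24 and 0 with cells of equal weight.

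Of the members, 1 was called for mast cells against mast cell II in the shared run and 1 to 2 without 1 library. With only the compared subtypes, 3, 3 and 2 were called in the macrophage comparisons. For Mac V against neutrophils 0 were called in the shared run and 0 without any 1 library. For DC II against DC I 2 were called by DESeq2, 0 with only these subtypes, 0 in the shared run and 0 to 1 without 1 library. For B against T cells DESeq2 called 1. Some log2 differences turned when 1 library was left out, with ranges of -0.04 to 0.63 for Fcer1g in mast cells against basophils (negative without the female basophils), -0.37 to 0.05 for Fcgr4 in Mac III against Mac IV (positive without the female Mac III), -3.80 to 0.70 for Fcgr3 in B against T cells (positive without the female T cells) and -6.26 to 7.95 for Fcgr4 there (negative without the male B cells). Fcgr4 also turned in Mac III against Mac IV with cells of equal weight (0.31) and in the shared run (0.38), and in Mac V against neutrophils with cells of equal weight (0.22). The cause was not tested. These ranges and the following counts cover the 38 differences of members in which a subtype had a mean of at least 20 CPM; below that level, Fcgr1 in B against T cells ran from -0.21 to 4.80. Over all alternatives 401 other values kept their direction and side of the threshold, 26 lost and 13 gained a call.

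With the animal as a replicate block, a paired fit, 1.71, 1.04, 0.276, 0.506, 0.218, 0.487, 0.231 and 0.115% of genes and 0, 4, 0, 0, 0, 1, 1 and 0 members were called, so no member count changed. Over the other detection rules, all 3 IgE receptor subunits were found in 20.5 to 38.5% of female and 5 to 20% of male mast cells, and in 44.1 to 64.7% and 73.7 to 78.9% of basophils. In the shared run the mean of Fcer1g in NK cells was at 1820 CPM (1115 over all runs) and that of Fcgr3 at 412.4 CPM (248.6). Other means fell there, to 48.98 CPM (74.02) for Fcgr4 in Mac IV, 14.55 CPM (23.53) for Fcgr1 in DC II and 29.58 CPM (82.33) for Fcer1g in T cells. With 2 animals and subtypes of as few as 5 cells, small differences could not be detected, and some large ones were not called either. In the main fit, Fcgr2b in Mac III against Mac IV was not called at a log2 difference of -4.39 ± 1.73 (edgeR, adjusted p 0.52). A difference that was not called is therefore not shown to be small.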
